A study of Homo sapiens with 6 samples.

Results

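A set of 10 receptor genes that mark the states of melanoma cells was examined in A375, an established cell line from a human melanoma: PDGFRB, PDGFRA, EGFR, ERBB3, IGF1R, NGFR, AXL, MET, KIT and FGFR1. They were chosen by name, as the rows of the deposited table that carry these symbols. All 10 were present under their current symbols, among 25438 rows with a gene symbol. Cells were grown for 3 days with leflunomide at 25 µM (3 arrays) or with DMSO, its solvent (3 arrays). RNA of both groups was extracted and labelled in the same way and read on Illumina bead arrays. Leflunomide inhibits dihydroorotate dehydrogenase, an enzyme of pyrimidine synthesis. The cells are 1 line, and whether each array stands for its own culture is not stated, so the p-values reflect the spread from array to array alone, which may be technical.

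Receptor tyrosine kinases are cell surface proteins that pair up when a ligand binds, phosphorylate each other and recruit adaptors that feed the MAP kinase and PI3 kinase pathways. Melanoma cells move between a melanocytic state, in which KIT and ERBB3 are typical receptors, and dedifferentiated or neural crest-like states known for AXL, EGFR, PDGFRB and NGFR, and a higher level of several of these receptors is known from melanoma cells that tolerate inhibitors of mutant BRAF. The common name of the set holds for all of its genes but NGFR. This gene's product, the low-affinity neurotrophin receptor, belongs to the tumour necrosis factor receptor family and has no kinase domain, and ERBB3, although a member of the EGFR family, has little kinase activity of its own.

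PDGFRB and IGF1R were the receptor genes with the largest positive and the largest negative log2 fold change, and the 250 bases before their gene starts are shown for that reason. The sequences are from RefSeq (assembly GRCh38.p14), each 5′ to 3′ on the gene's own strand. The PDGFRB stretch lies at chr5:150155846-150156095 on the minus strand and the IGF1R stretch at chr15:98648289-98648538 on the plus strand. Capitals mark the letters CCAAT and GGGCGG or their reverse complements ATTGG and CCGCCC.
PDGFRB: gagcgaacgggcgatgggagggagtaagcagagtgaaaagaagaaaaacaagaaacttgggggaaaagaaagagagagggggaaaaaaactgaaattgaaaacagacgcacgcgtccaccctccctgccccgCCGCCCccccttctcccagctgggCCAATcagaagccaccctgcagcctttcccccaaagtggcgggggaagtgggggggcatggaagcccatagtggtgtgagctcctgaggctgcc
IGF1R: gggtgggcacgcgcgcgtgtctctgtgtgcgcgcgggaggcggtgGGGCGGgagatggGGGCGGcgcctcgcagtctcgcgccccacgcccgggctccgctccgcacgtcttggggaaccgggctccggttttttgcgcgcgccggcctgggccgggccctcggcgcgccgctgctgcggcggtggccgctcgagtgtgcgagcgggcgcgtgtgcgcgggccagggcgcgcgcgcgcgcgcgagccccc
The PDGFRB stretch held 1 CCAAT, whose first base lies at position −94 from the gene start, and 1 CCGCCC at −118. The IGF1R stretch held GGGCGG at −205 and −192 and no CCAAT. G and C made up 58.4% of the PDGFRB stretch and 81.2% of the IGF1R stretch. CCAAT or ATTGG occurred in 32.0% and GGGCGG or CCGCCC in 42.6% of 35116 RefSeq promoters cut to the same length, and TATAAA or TTTATA in 10.7%. The table held promoters for 7 of the 10 genes and none for ERBB3, NGFR and FGFR1. In at least 1 entry, GGGCGG or CCGCCC was found for all 7, CCAAT for PDGFRA and PDGFRB, and TATAAA for EGFR, with PDGFRA, EGFR and AXL having a second entry. A match is a description of the letters and does not show that a factor binds there.

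Signal differed between arrays. The mean signal per row was 317.7 to 370.5 on the DMSO arrays and 261.7, 343.1 and 128.9 on leflunomide replicates 1, 2 and 3, and 11816 to 14020 rows were detected, that is, had a detection p-value under 0.05 against that array's negative control beads. Leflunomide replicate 3 had the fewest detected rows and stood apart. Over all genes, its correlation with another array was 0.890 to 0.902 on the normalized log2 scale, against 0.988 to 0.997 for pairs without it. The negative control mean, inferred from the signals and detection p-values of rows, was 36.8 ± 6.52 (inferred SD) on that array and 56.5 to 59.6 on the others. Each fold change of a receptor gene is therefore given with and without it. Of 12399 genes tested with all 6 arrays, limma called 30 (0.242%) higher and 104 (0.839%) lower with leflunomide at an adjusted p under 0.05. With leflunomide replicate 3 left out, limma called 1156 of 12220 genes (9.46%) higher and 1229 (10.1%) lower.

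**Figure D1:**
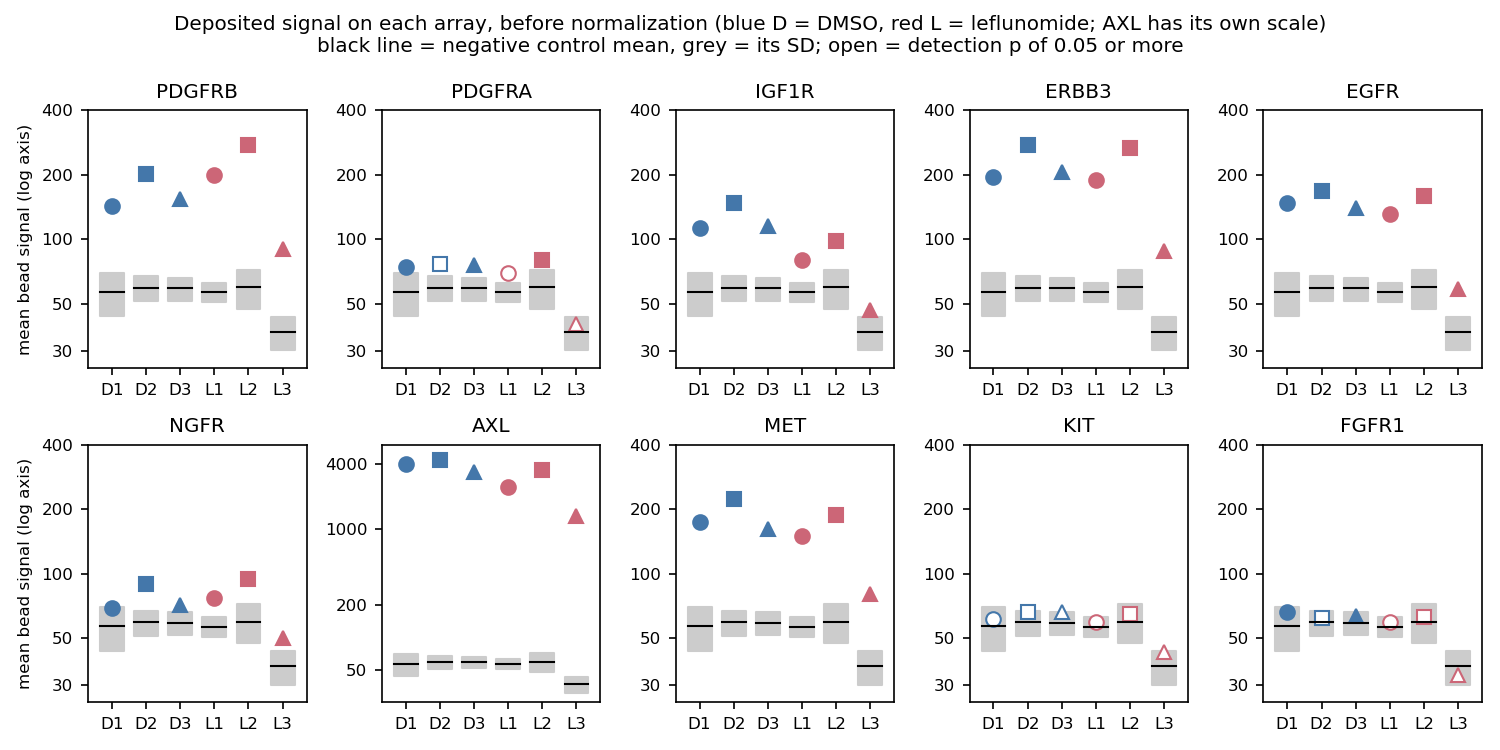
Deposited mean bead signal of the 10 receptor genes (log axis) on the DMSO arrays (D1 to D3) and the leflunomide arrays (L1 to L3), with the inferred mean and SD of the negative controls. AXL lay at 1310.1 to 4329.7, KIT was not detected on any array, and every gene read lower on L3 than on the other 5 arrays.

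PDGFRB rose with leflunomide and was the only one of the 8 tested receptor genes that limma called with all 6 arrays. It encodes the beta receptor for platelet-derived growth factor, known from pericytes and fibroblasts and from melanoma cells that escape BRAF inhibitors. Its deposited signals were 143, 201 and 154 on the DMSO arrays and 199, 275 and 90.4 on leflunomide replicates 1, 2 and 3. Before normalization the groups thus overlapped, since replicate 3 read lowest and replicates 1 and 2 lay near or above the brightest DMSO array. The detection p-value was 0.00132 on DMSO replicate 1 and 0 on the other 5 arrays. After background correction and quantile normalization the log2 intensities were 6.42, 6.74 and 6.56 with DMSO and 7.47, 7.50 and 7.46 with leflunomide. On this scale all 3 leflunomide arrays lay above all 3 DMSO arrays, with means of 6.57 ± 0.16 (SD, n = 3) and 7.48 ± 0.024 (SD, n = 3). The log2 fold change was 0.90 ± 0.12 (SE), a 1.87-fold increase with a 95% confidence interval of 0.62 to 1.18 on the log2 scale (limma adjusted p = 0.0317 over all tested genes).

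The increase of PDGFRB was 1.93-fold without leflunomide replicate 3 (log2 fold change 0.95 ± 0.11 SE, limma adjusted p = 0.000148). Leaving out any other single array kept the log2 fold change between 0.82 and 0.98, but ended the call, with limma adjusted p-values of 0.237, 0.150 and 0.229 without DMSO replicates 1, 2 and 3 and of 0.172 and 0.134 without leflunomide replicates 1 and 2. Median scaling of the arrays, used instead of quantile normalization, gave 0.23 (limma adjusted p = 0.714), where the median of all tested genes was −0.53, so that PDGFRB lay 0.76 above it. With the same scaling but without replicate 3 it was 0.68 (limma adjusted p = 0.0472). In RNA from whole cultures, a higher level in every cell and a larger share of cells with PDGFRB cannot be told apart.

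PDGFRA, the gene of the alpha receptor of the same ligand family, was close to background and was not called. Its signals were 74.3, 77.0 and 76.0 with DMSO and 69.6, 79.6 and 40.3 with leflunomide. It was detected on DMSO replicates 1 and 3 and on leflunomide replicate 2. DMSO replicate 2, with the highest DMSO signal, had a detection p-value of 0.0573, above the 0.0107 and 0.0354 of replicates 1 and 3, as can occur on rows that combine several probes. PDGFRA had a log2 fold change of −0.08 ± 0.16 (SE), with a 95% confidence interval of −0.47 to 0.30 (limma adjusted p = 0.792), and 0.09 without leflunomide replicate 3 (limma adjusted p = 0.60). The groups overlapped in both comparisons.

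IGF1R, the receptor gene for insulin-like growth factors, which carry survival signals through PI3 kinase, had lower values with leflunomide. Its signals were 113, 147 and 116 with DMSO and 79.6, 97.9 and 46.8 with leflunomide, with detection p-values of 0.00132, 0.00132 and 0.00264 and of 0.0105, 0.00527 and 0.0382. The groups did not overlap on the deposited scale. Nor did they after normalization, with log2 intensities of 5.96, 6.17 and 5.98 with DMSO and 5.48, 5.58 and 4.99 with leflunomide, of which replicate 3 was the lowest. Over all 6 arrays the log2 fold change was −0.69 ± 0.18 (SE, 95% confidence interval −1.12 to −0.25), a ratio of 1.61-fold that did not pass (limma adjusted p = 0.142). On the other 5 arrays IGF1R fell 1.48-fold, by −0.57 ± 0.11 (SE) on the log2 scale (limma adjusted p = 0.00336). Its log2 fold change lay between −1.09 and −0.34 over the 20 alternative settings run.

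NGFR, the p75 neurotrophin receptor and a marker of neural crest-like melanoma cells, was dim but detected on all 6 arrays. Its signals were 69.0, 89.5 and 71.3 with DMSO and 77.2, 94.2 and 50.1 with leflunomide, with detection p-values of 0.00659 to 0.0343. The deposited signals overlapped between groups. The normalized log2 intensities did not, at 4.86, 5.22 and 4.86 with DMSO and 5.38, 5.49 and 5.55 with leflunomide. A log2 fold change of 0.49 ± 0.14 (SE, 95% confidence interval 0.17 to 0.82) did not pass with all 6 arrays (limma adjusted p = 0.153). NGFR rose 1.44-fold when leflunomide replicate 3 was left out (0.52 ± 0.13 SE, limma adjusted p = 0.0144). On rows whose detection p-values are ranks, as on that of NGFR, the lowest detected signal was 66.2 and 68.6 on DMSO replicates 1 and 3 and 46.3 on leflunomide replicate 3, so NGFR lay just above the detection limit there. The offset added before the log understates fold changes at such a level.

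ERBB3 and EGFR belong to 1 receptor family, whose members signal in pairs. ERBB3, the neuregulin receptor of the melanocytic state, had signals of 195, 276 and 205 with DMSO and 189, 267 and 87.6 with leflunomide. Its normalized log2 intensities were 6.995, 7.26 and 7.07 with DMSO and 7.38, 7.45 and 7.38 with leflunomide, and on this scale the groups did not overlap. Its log2 fold change was 0.30 ± 0.11 (SE), with a 95% confidence interval of 0.029 to 0.56, and did not pass (unadjusted p = 0.035, limma adjusted p = 0.252). It did not pass without leflunomide replicate 3 either (0.32, limma adjusted p = 0.0601), and it was −0.40 under median scaling, above the all-gene median of −0.53.

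EGFR, the epidermal growth factor receptor, gave overlapping groups on both scales. Its signals were 148, 167 and 141 with DMSO and 131, 159 and 58.3 with leflunomide, and its log2 intensities 6.49, 6.42 and 6.37 and 6.66, 6.55 and 6.31. EGFR had a log2 fold change of 0.08 ± 0.12 (SE, 95% confidence interval −0.22 to 0.38, limma adjusted p = 0.751), and 0.18 without leflunomide replicate 3 (limma adjusted p = 0.232). The difference between ERBB3 and EGFR within an array was 0.68 ± 0.17 (SD, n = 3) on the DMSO arrays and 0.90 ± 0.17 (SD, n = 3) on the leflunomide arrays. The shift of 0.22 was slightly larger than these SDs and did not pass (p = 0.2, exact two-sided permutation test, in which 3 arrays against 3 cannot go below 0.1). The p was also 0.2 after adjustment over the 2 receptor pairs computed, the other being PDGFRB and PDGFRA, whose shift is not given because PDGFRA was not detected on 3 arrays.

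AXL, the receptor for GAS6 that names the AXL-high dedifferentiated state, was bright on every array and was not called. Its signals were 3959, 4329.7 and 3377 with DMSO and 2433, 3533 and 1310.1 with leflunomide, each with a detection p-value of 0. After normalization the log2 intensities were 11.65, 11.57 and 11.47 with DMSO and 11.34, 11.39 and 11.59 with leflunomide, and the groups overlapped because replicate 3 was the highest leflunomide array. AXL had a log2 fold change of −0.12 ± 0.11 (SE, 95% confidence interval −0.40 to 0.15, limma adjusted p = 0.590), and −0.19 without that array (limma adjusted p = 0.203). The interval with all 6 arrays leaves room for a decrease of up to 0.40 on the log2 scale. AXL kept a negative log2 fold change in all 20 alternative settings and passed the threshold in none of them, with adjusted p-values of 0.102 to 0.843.

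MET, the receptor gene for hepatocyte growth factor, had signals of 173, 222 and 162 with DMSO and 150.2, 187 and 79.9 with leflunomide. It was detected on all 6 arrays. Its log2 intensities were 6.78, 6.90 and 6.65 with DMSO and 6.94, 6.84 and 7.16 with leflunomide, and the groups overlapped. MET had a log2 fold change of 0.20 ± 0.13 (SE, 95% confidence interval −0.11 to 0.52, limma adjusted p = 0.471), and 0.12 without leflunomide replicate 3 (limma adjusted p = 0.485). Under median scaling MET was at −0.47 and EGFR at −0.52, both close to the all-gene median of −0.53, so neither gene has a direction that holds under both scalings.

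KIT, the stem cell factor receptor that melanocytes depend on, was not detected on any array. Its signals were 61.4, 66.1 and 66.4 with DMSO and 59.1, 64.4 and 42.8 with leflunomide. These lay 0.358 to 1.04 inferred SDs of the negative controls above their inferred mean, and the detection p-values were 0.146 to 0.340. FGFR1, a fibroblast growth factor receptor, had signals of 65.9, 62.1 and 63.6 with DMSO and 59.5, 62.7 and 33.4 with leflunomide. It was detected on DMSO replicates 1 and 3 and on no leflunomide array. Both genes failed the filter of detection on at least 3 arrays and were not tested. Their levels lay too near background for a fold to be given, and this does not show that the transcripts were absent or did not change.

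**Figure D2:**
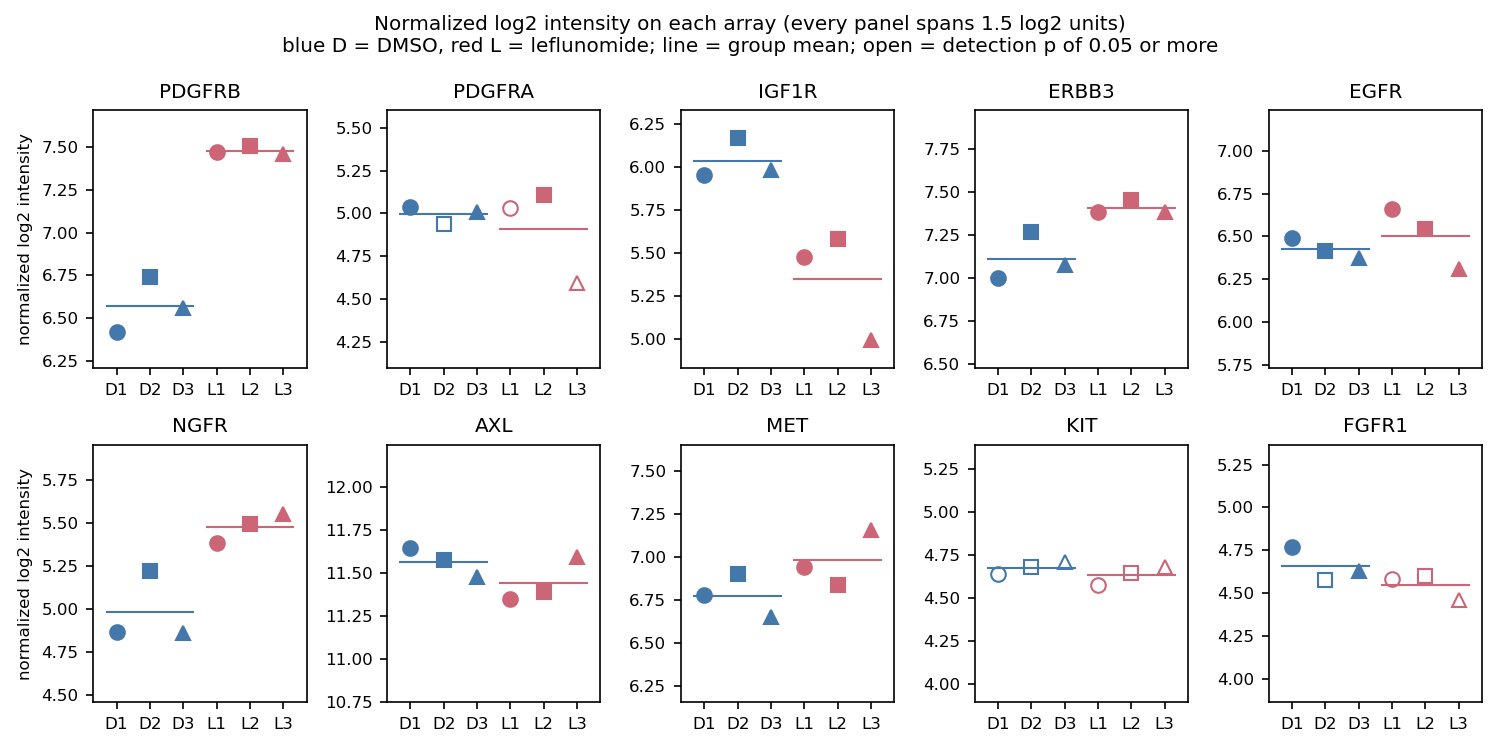
Normalized log2 intensity of the 10 receptor genes on each array, with the group means as lines; every panel spans 1.5 log2 units. The leflunomide arrays lie above the DMSO arrays for PDGFRB, NGFR and ERBB3, below them for IGF1R, and overlap them for the other 4 tested genes.

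In all, 8 of the 10 genes passed the detection filter. With all 6 arrays 1 rose, none fell and 7 did not pass, while 0.242% of all tested genes rose and 0.839% fell. An unadjusted p under 0.05 was reached by 4 of the 8, and by 2100 of all 12399 tested genes (16.9%). On normalized values the groups did not overlap for 3 genes that were higher and 1 that was lower. Over all tested genes 14.5% were higher without overlap and 15.3% lower without overlap. The median log2 fold change of the 8 was 0.14, against −0.0026 over all tested genes. On the 5 arrays left without leflunomide replicate 3, 2 of the 8 rose (PDGFRB and NGFR), 1 fell (IGF1R) and 5 did not pass, with a median of 0.15 against 0.0049 over all tested genes. In that fit 9.46% of all tested genes rose and 10.1% fell.

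**Figure D3:**
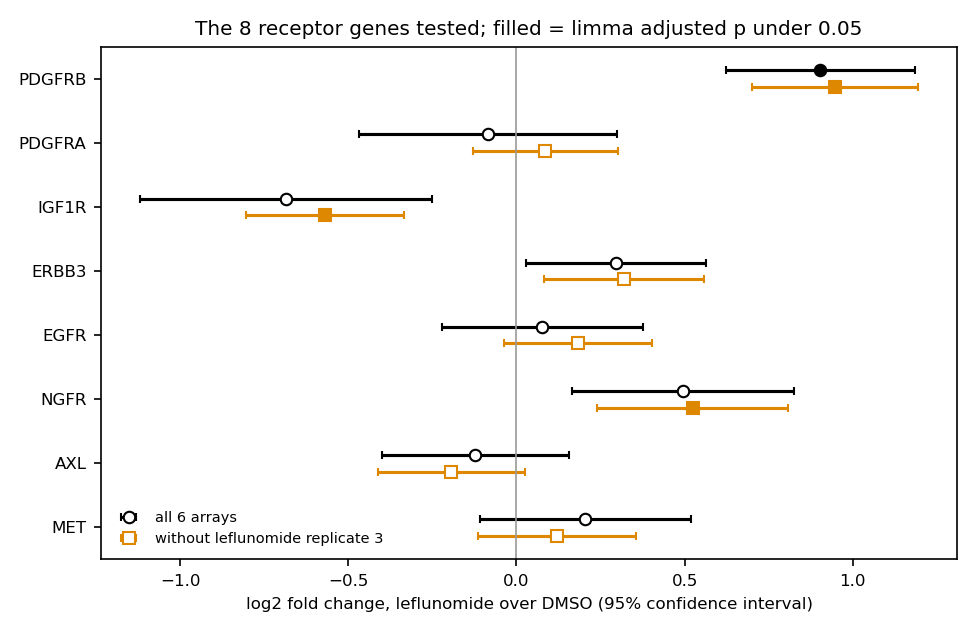
Log2 fold change of the 8 tested receptor genes, leflunomide over DMSO, with 95% confidence intervals, for all 6 arrays (black) and without leflunomide replicate 3 (orange); filled symbols passed a limma adjusted p of 0.05. PDGFRB lies at 0.90 and 0.95 and is filled in both, while IGF1R and NGFR are filled only without that array.

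Of 33 ligand genes of these receptors or of their families, 14 were tested and none passed with all 6 arrays. An unadjusted p under 0.05 was reached by 5, against 16.9% of all tested genes. Their median log2 fold change was −0.17. HBEGF, which encodes a heparin-binding ligand of EGFR, had signals of 940.0, 1240.0 and 964 with DMSO and 420.3, 625 and 214 with leflunomide. Its log2 fold change was −0.72 ± 0.11 (SE), just outside the threshold (limma adjusted p = 0.0512). PROS1, the gene of protein S, a ligand of AXL's family, was at −0.66 ± 0.10 (SE, limma adjusted p = 0.0526). For both genes the leflunomide arrays lay below all DMSO arrays on the deposited and the normalized scale.

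In the fit without leflunomide replicate 3, 4 ligand genes fell (10.1% over all tested genes) and none rose (9.46%), with a median of −0.19. Among them were HBEGF (1.73-fold, limma adjusted p = 0.000219), PROS1 (1.57-fold, limma adjusted p = 0.00117) and BDNF, a neurotrophin gene whose product binds NGFR, at −0.33 (limma adjusted p = 0.0318). Every DMSO array detected BDNF and no leflunomide array did, and with all 6 arrays its log2 fold change was −0.38, which did not pass (normalized means 5.86 and 5.48, limma adjusted p = 0.177). These are fitted values of a row that combines probes, whose leflunomide signals of 83.7, 95.8 and 48.6 were not above background by their detection p-values. FGF2, a ligand of FGFR1, was at −0.47 over 6 arrays and 0.03 over 5 (limma adjusted p = 0.584 and 0.904).

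Among 49 other receptor tyrosine kinase genes, 24 were tested with all 6 arrays (median −0.04). Of these 1 fell (0.839% over all tested genes), none rose (0.242%) and 23 did not pass. The one that fell was ROS1, an orphan-type receptor kinase gene known from fusions in lung cancer. Its signals were 100.04, 107 and 90.8 with DMSO and 66.6, 71.4 and 44.0 with leflunomide, and it was detected on 5 of the arrays but not on leflunomide replicate 3. ROS1 fell 1.68-fold, at −0.75 ± 0.11 (SE) on the log2 scale (limma adjusted p = 0.0457), and 1.75-fold without that array (limma adjusted p = 0.00035).

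Of 23 tested without leflunomide replicate 3, 2 rose (9.46% over all tested genes), 1 fell (10.1%) and 20 did not pass (median 0.098). The pair that rose was EPHB1, an ephrin receptor gene (0.44, limma adjusted p = 0.00999), and CSF1R, the receptor gene for the macrophage growth factor and a relative of PDGFRB and KIT (0.36, limma adjusted p = 0.0295). With all 6 arrays they were at 0.39 and 0.37 (limma adjusted p = 0.135 and 0.169). Under median scaling without replicate 3 they were at 0.17 and 0.12 and did not pass (limma adjusted p = 0.740 and 0.838). ROS1 still passed there, at −0.94 (limma adjusted p = 0.00218). TYRO3, a relative of AXL, was at 0.52 over all arrays and 0.32 over those other than replicate 3 (limma adjusted p = 0.270 and 0.0614). DDR1, a collagen receptor gene, had a signal of 29.9 on replicate 3, and its log2 fold change was −0.95 with that array and −0.11 without it, neither past the threshold (limma adjusted p = 0.522 and 0.537). RYK and LMTK2 were at −0.46 and −0.42 with all arrays and did not pass (limma adjusted p = 0.651 and 0.433), nor did they without replicate 3, at 0.18 and −0.22 (limma adjusted p = 0.228 and 0.341).

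Of 31 genes for adaptors and relays that carry the receptors' signals, 24 were tested and none passed with all 6 arrays (median −0.04). An unadjusted p under 0.05 was reached by 2 of the 24, against 16.9% of all tested genes. When leflunomide replicate 3 was left out, 3 rose (9.46% over all tested genes), none fell (10.1%) and 21 did not pass (median 0.093). Among them were PIK3CA, a catalytic subunit gene of PI3 kinase (0.53, limma adjusted p = 0.0135), and MAPK3, which encodes the MAP kinase ERK1 (0.43, limma adjusted p = 0.0187). With all 6 arrays these were at 0.06 and 0.66 (limma adjusted p = 0.933 and 0.213), and PIK3CA had a signal of 34.7 on replicate 3. Under median scaling without replicate 3 they were at 0.30 and 0.16 and did not pass (limma adjusted p = 0.488 and 0.749). NCK1, an adaptor gene, had a signal of 11.4 on that array. Its log2 fold change was −1.60 with it (limma adjusted p = 0.569) and 0.092 without it (limma adjusted p = 0.697). PLCG1, the phospholipase gene, was at 0.52 and 0.27 (limma adjusted p = 0.347 and 0.133).

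Of 34 genes for inhibitors and turnover of receptors, 32 were tested with all 6 arrays (median 0.046). Of these 1 fell (0.839% over all tested genes), none rose (0.242%) and 31 did not pass. The gene that fell was SOCS2, a feedback inhibitor of cytokine and growth hormone signalling that has been tied to the turnover of growth factor receptors. Its signals were 354, 464 and 342 with DMSO and 167, 242 and 75.3 with leflunomide, with no overlap. SOCS2 fell 1.82-fold, at −0.86 ± 0.12 (SE) on the log2 scale (limma adjusted p = 0.0359), and 1.76-fold without leflunomide replicate 3 (limma adjusted p = 0.00025). Without that array 2 of 31 rose (9.46% over all tested genes), 3 fell (10.1%) and 26 did not pass (median 0.058). LRIG1 and LRIG3, of a family of transmembrane proteins of which LRIG1 promotes the degradation of EGFR family receptors, were at 0.57 and 0.43 (limma adjusted p = 0.0061 and 0.0408), against 0.46 and 0.36 with all arrays (limma adjusted p = 0.160 and 0.299). Beside SOCS2, GRB14, an adaptor that inhibits the insulin receptor, was at −0.42 (limma adjusted p = 0.0181; −0.45 and 0.159 with all arrays). SPRY4, a feedback inhibitor of MAP kinase signalling named here after its values were seen, was at −0.35 (limma adjusted p = 0.0431; −0.41 and 0.175 with all arrays). Under median scaling without replicate 3, LRIG1, LRIG3 and GRB14 were at 0.32, 0.17 and −0.62, none called (limma adjusted p = 0.460, 0.738 and 0.0745). SOCS2 was still called there, at −1.08 (limma adjusted p = 0.000354). PTPN1, the gene of a non-receptor tyrosine phosphatase that acts on receptors, had a signal of 12.3 on replicate 3. It went from −1.85 with that array to 0.13 without it (limma adjusted p = 0.572 and 0.507).

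Output genes of MAP kinase signalling, the pathway that these receptors and mutant BRAF feed, had the lowest median of the lists that describe the receptors' pathway. With all 6 arrays 1 of 16 tested fell (0.839% over all tested genes), none rose (0.242%) and 15 did not pass. An unadjusted p under 0.05 was reached by 8 (16.9% over all tested genes), and the median was −0.32. The gene that fell was EGR1, an immediate early transcription factor gene, with signals of 1294, 1723 and 1206 with DMSO and 173, 281 and 75.8 with leflunomide. EGR1 was 6.68-fold lower, at −2.74 ± 0.16 (SE) on the log2 scale (limma adjusted p = 0.0049). Without leflunomide replicate 3, 7 of the 16 fell (10.1% over all tested genes), 1 rose (9.46%) and 8 did not pass (median −0.20). DUSP5, an ERK phosphatase gene, was 1.98-fold lower there (limma adjusted p = 8.0e-05). CCND1, the cyclin D1 gene, was 1.59-fold lower (limma adjusted p = 0.00096), and FOS, another immediate early gene, 1.70-fold lower (limma adjusted p = 0.00113).

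With all 6 arrays DUSP5, CCND1 and FOS were at −0.80, −0.45 and −1.09 and did not pass (limma adjusted p = 0.114, 0.364 and 0.187). PHLDA1 was at −0.46 without replicate 3 (limma adjusted p = 0.0160) and −0.69 with it (limma adjusted p = 0.197). The remaining pair that fell was IER3 (−0.48, limma adjusted p = 0.00703) and SPRY4. The gene that rose was ETV5, an ETS factor (0.32, limma adjusted p = 0.0446). IER3 and ETV5 were named after their values were seen. With all 6 arrays they were at −0.40 and 0.29 and did not pass (limma adjusted p = 0.187 and 0.222). ETV4, a relative of ETV5, was at 0.51 and 0.19 and did not pass in either comparison (limma adjusted p = 0.436 and 0.335). In the fit without replicate 3 the list thus held genes called in opposite directions. This depended on the scaling. Under median scaling of all 6 arrays none of the 16 genes lay above 0. The highest was at −0.21, where the median of all tested genes was −0.53.

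Of 23 genes for co-receptors and partners of NGFR and the kinase receptors, 19 were tested and none passed with all 6 arrays (median 0.027). An unadjusted p under 0.05 was reached by 2 of the 19, against 16.9% of all tested genes. Leaving out leflunomide replicate 3, 1 rose (9.46% over all tested genes), 3 fell (10.1%) and 15 did not pass (median 0.0096). MAGED1, an adaptor that binds NGFR, was at −0.43 (limma adjusted p = 0.0105), TRAF6, a signal adaptor used by NGFR, at −0.34 (limma adjusted p = 0.0499), and PLXNB1, a semaphorin receptor that associates with MET, at −0.48 (limma adjusted p = 0.0374). CAV1, the caveolin gene, was at 0.31 (limma adjusted p = 0.0413). With all 6 arrays these 4 were at −0.32, −0.52, −0.17 and 0.24, with limma adjusted p-values of 0.293, 0.268, 0.751 and 0.349. Under median scaling without replicate 3, MAGED1 and PLXNB1 still passed (−0.68 and −0.72, limma adjusted p = 0.0465 and 0.0324). TRAF6 and CAV1 did not (−0.57 and 0.14, limma adjusted p = 0.106 and 0.797). SORCS1, a sortilin relative, and ITGAV, an integrin gene, were at 0.51 and −0.47 with all arrays and did not pass in either comparison (limma adjusted p = 0.313 and 0.390, and 0.0676 and 0.216 without replicate 3).

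**Figure D4:**
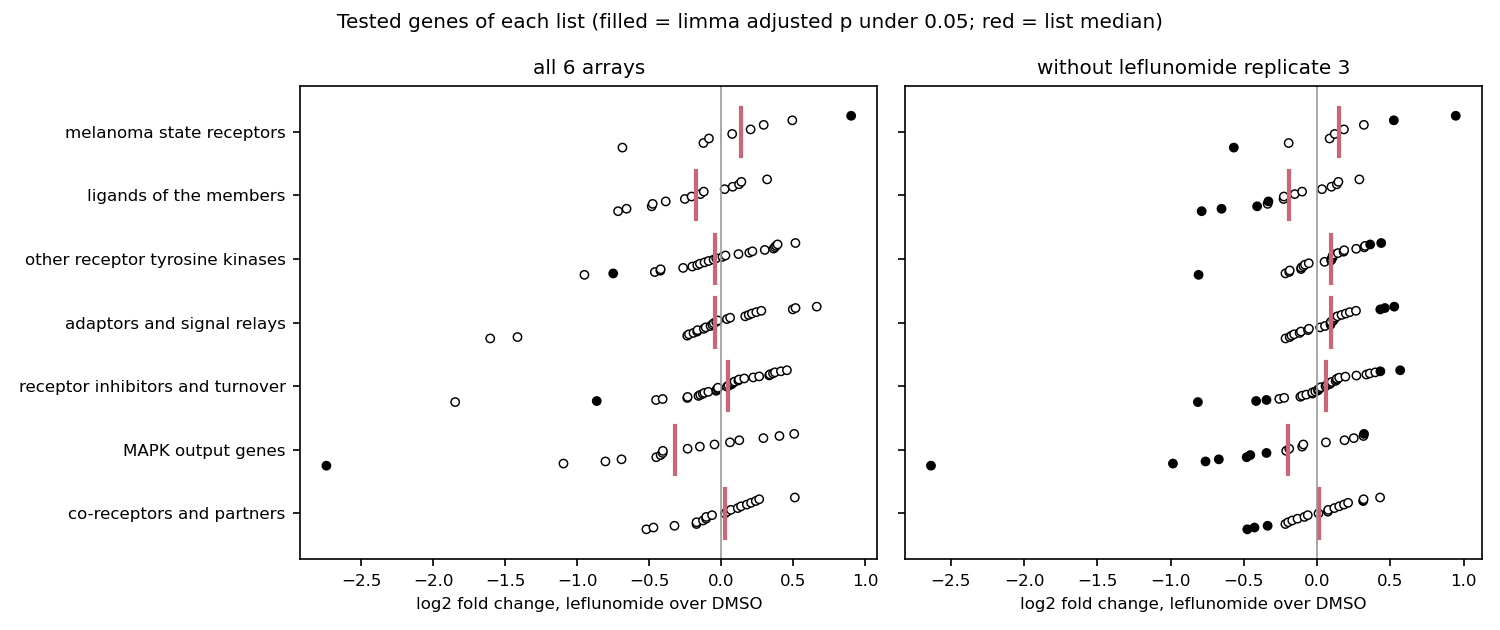
Log2 fold change, leflunomide over DMSO, of every tested gene in the receptor set and in the 6 pathway lists, with all 6 arrays (left) and without leflunomide replicate 3 (right); filled points passed a limma adjusted p of 0.05 and red bars are medians. The MAP kinase output genes have the lowest medians, −0.32 and −0.20, and EGR1 lies farthest left at −2.74 and −2.64.

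Markers of cell types were read beside these receptors, since PDGFRB also marks fibroblasts and mural cells. Of 10 melanocytic markers, SOX10, the transcription factor of the melanocyte lineage, was detected on all 6 arrays, with signals of 1719 to 2264 with DMSO and 386 to 1870.2 with leflunomide (log2 fold change −0.34, limma adjusted p = 0.384). The pigment cell markers MLANA, TYR, DCT, TYRP1, S100B and RAB27A were not detected on any array. MITF passed detection on leflunomide replicate 2 alone. Its signals were 120, 131 and 109 with DMSO and 96.7, 119 and 50.3 with leflunomide. These lay above the negative control means of 56.5 to 59.6, and of 36.8 on leflunomide replicate 3. The detection p-values of MITF are not ranks and follow signal less closely, so it is not shown to be absent. GPR143 was detected on 1 DMSO array. PMEL, which encodes the melanosome matrix protein, fell 2.08-fold (limma adjusted p = 0.0341), with detection on every DMSO array and, among leflunomide arrays, on replicate 3 alone. The summed signal of the 10 markers was 2362 to 2942 with DMSO and 728 to 2470 with leflunomide, and its part in the results for the receptors was not tested.

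Of the 8 fibroblast and mural cell markers, PDGFRB among them, 3 per array were detected with DMSO and 2 to 4 with leflunomide. COL1A2, COL3A1 and THY1 were not detected on any array, RGS5, a pericyte marker, on 1 array of each treatment, and COL1A1 on 2 leflunomide arrays. The matrix genes DCN and LUM were at −0.68 and −1.04 with all 6 arrays (limma adjusted p = 0.0812 and 0.0817), and fell 1.82-fold and 2.00-fold without leflunomide replicate 3 (limma adjusted p = 0.000295 and 0.000544). DCN was detected on every DMSO array but, with leflunomide, on replicate 3 alone. The fold of DCN without that array thus rests on leflunomide values that were not detected. LUM was detected on 2 arrays of each treatment, with detection p-values of 0.0193 to 0.0534. On both rows the detection p-values are not ranks. The increase of PDGFRB stood beside these lower fitted values of DCN and LUM. The summed signal of the 8 markers was 662 to 769 with DMSO and 383 to 752 with leflunomide. The endothelial markers CDH5, KDR and VWF, the leukocyte markers PTPRC and CD3E and the keratinocyte markers KRT5, KRT1 and DSG3 were not detected on any array. Other markers on these lists were. CD68, a lysosomal protein gene of macrophages, and the keratin genes KRT14 and KRT10 were detected on all 6 arrays, with log2 fold changes of −0.53, −0.24 and −0.57 (limma adjusted p = 0.195, 0.672 and 0.151). They fell without leflunomide replicate 3, at −0.70, −0.60 and −0.45 (limma adjusted p = 0.000536, 0.0120 and 0.0187). The endothelial markers PECAM1 and TEK were detected on 5 arrays and passed in neither comparison, and CD14, a monocyte marker, was detected on 3. The part of these markers in the results for the receptors was not tested.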

How the data were processed

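RNA of A375 cells was read on 6 Illumina bead arrays, 3 per treatment. Per the file headers, the deposited intensity values are mean bead signals without normalization. GenomeStudio is named in the submitters' processing notes, and neither the build nor the probe annotation is given in the sources used here. The authors also deposited, for each row and array, a detection p-value against that array's negative control beads. Each symbol occurred on 1 row, so probes of a gene had been combined. On 32290 of 38275 rows, 5 of the 10 receptor genes among them, the p-values were multiples of 1/759 within 0.001, as ranks among 759 controls give. The other rows held p-values of another kind, so that detection there follows signal less closely. The number of arrays limits the precision.

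With limma 3.58.1 in R 4.3.3, background was corrected by normexp with control parameters inferred from the rank p-values of those rows, an offset of 16 and quantile normalization. Rows detected (p-value under 0.05) on 3 or more arrays were kept. Symbols were updated through RefSeq (GRCh38.p14, names only), and no alias was joined to a gene with its own row, leaving 12399 genes. The treatments were compared by linear models with empirical Bayes moderation and Benjamini-Hochberg adjustment over all tested genes. Leaving out an array removed it from normalization, filter and fit. The linear model alone was tested on simulated log2 values with the same spread for every gene and array. Background correction, normalization, the detection filter and an array that stands apart were not simulated. The 10 receptor genes, the lists and the rule for named genes were chosen with earlier results of these data known. Named were all 10 receptors and, of each other list, every gene called with all arrays, up to 4 further genes with the largest absolute log2 fold change and up to 4 with the largest among those called without leflunomide replicate 3. Some genes that this rule names are not reported here. A second deposited table, of probes without gene names, was not used.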

Additional observations from a re-analysis of the deposited data

How the results depend on the processing

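Without leflunomide replicate 3, limma called 2385 genes in place of 134, and without any other single array 3 to 5, so the range over single arrays left out was 3 to 2385. Over the same arrays, 0 to 2 receptor genes were called higher and 0 to 1 lower. No gene was called with median scaling or with no normalization between arrays (0 genes each by limma, with 1684 and 1582 at an unadjusted p under 0.05), so 0 receptor genes were called there. Array quality weights, which weigh down arrays that fit poorly, called 2552 genes, with 3 receptor genes higher (PDGFRB, NGFR and ERBB3, the last at 0.31 with an adjusted p of 0.0393) and 1 lower (IGF1R). Settings chosen after seeing the data were scaling to a common mean (218 genes, 0 receptor genes higher), the common median without leflunomide replicate 3 (828 genes, 1 receptor gene higher and 1 lower) and the common mean without it (2584 genes, 2 higher and 1 lower). Over all tested genes, the common median without replicate 3 called 41 higher and 787 lower, and the common mean without it 683 and 1901. Quantile normalization without it called 1156 and 1229. The balance of higher and lower calls thus depended on the scaling. The other background corrections, detection filters and variance models kept the counts of receptor genes at 1 higher and 0 lower. Averaging rows of a gene could not change the values of a receptor gene, since each has 1 row.

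PDGFRB was positive in all 20 settings, at 0.17 to 0.98, and lost its call in 9 of them, among them common mean scaling (0.72, adjusted p = 0.102) and no normalization (0.17). NGFR was positive in all 19 settings that tested it, at 0.11 (no normalization) to 0.55, with 0.17 under median scaling, and its call without replicate 3 ended under the common median (0.32, adjusted p = 0.447). IGF1R was negative in all 20. Direction changed for EGFR, at −0.52 with median scaling, −0.58 with no normalization, −0.10 with the common mean and −0.071 with the common median without replicate 3. It changed for ERBB3, at −0.40 and −0.47 with the first pair of these, and for MET, at −0.47, −0.53 and, with the common median without replicate 3, −0.14. PDGFRA was tested in 15 settings. It was at 0.045 with array weights, 0.039 with the common mean and 0.042 with the common mean without replicate 3. Of the fits without a single array, only those without DMSO replicate 2 and leflunomide replicates 1 and 3 tested it. There it was at −0.10, −0.15 and 0.085. Apart from the arrays and scaling named, the cause was not tested.

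Same-numbered arrays correlated at −0.0098, 0.21 and 0.21 in their deviations from group means, and differently numbered arrays at −0.24 to 0.18. These correlations do not settle whether the numbers pair samples, and the main fit was run without pairing. A replicate block left limma 4 called genes and 0 receptor genes higher (PDGFRB 0.90, adjusted p = 0.142). The second deposited table was planned as an alternative and was not run, since no table at hand names its probes. Dim signal limits NGFR, PDGFRA, KIT and FGFR1, whose values lay near the negative controls. IGF1R was near the detection limit on leflunomide replicate 3 alone, at 46.8. The lowest detected signal on rows with rank p-values was 46.3 there.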
